A study of Rattus norvegicus with 64 samples.

Results

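B cell and plasma cell genes were described in rat bladder walls reconstructed using a bladder acellular matrix (BAM), a decellularized bladder wall, with or without seeded ASCs (stromal cells from adipose tissue, ADSCs in the sample labels). The set was a list of 9 genes: Cd79a, Cd79b, Ms4a1, Jchain, Mzb1, Pou2af1, Blk, Xbp1 and Tnfrsf17. Gene probes were taken as members where the RefSeq transcript given for the probe, without its version, belonged to one of these symbols. By this rule 6 of the 9 genes had a probe, of 15715 genes named on the array. No probe was matched to Cd79a, Ms4a1 or Jchain, and their levels were not analysed here. Male Wistar rats underwent hemicystectomy and the defect was closed with either graft, without any unoperated group among the arrays. ASCs came from retroperitoneal fat of male Wistar rats and were cultured to the third passage before seeding. The operated rats are described as syngeneic, and the paper in one place calls the cells autologous. The reconstructed wall was separated from the native bladder and its total RNA was hybridized on 1-color Agilent arrays at 7, 30, 90 and 180 days after surgery, with 8 biological replicates in each of the 8 groups and 64 arrays in all. The labels give no age for the operated rats.

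B cells recognise antigen through a surface immunoglobulin that signals through the Cd79a and Cd79b chains and through Src family kinases such as Blk. After activation some B cells become plasma cells, which enlarge their endoplasmic reticulum and secrete antibody. Pou2af1 is the B lineage coactivator of the octamer-binding factors, Mzb1 is a chaperone of the endoplasmic reticulum that assists antibody assembly, Tnfrsf17 (BCMA) is the receptor through which plasma cells take up survival signals, and Xbp1 is the transcription factor that drives the secretory programme. Xbp1 is also used by many other secretory cells, epithelial cells included, so that its RNA in a whole bladder wall does not mark plasma cells alone.

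Promoter windows of 2 of the 6 genes, Xbp1 and Tnfrsf17, were found in the RefSeq table of build GRCr8. Both are printed because their RNA followed different courses in these bladders. Each window runs 5′ to 3′ on the strand of the gene, from 250 bases before to 50 bases after the annotated start. The Xbp1 window is chr14:84604373-84604672 on the + strand, and its capitals mark the letters of an endoplasmic reticulum stress element (ERSE). The Tnfrsf17 window is chr10:4813723-4814022 on the - strand and held none of the motifs searched.
Xbp1: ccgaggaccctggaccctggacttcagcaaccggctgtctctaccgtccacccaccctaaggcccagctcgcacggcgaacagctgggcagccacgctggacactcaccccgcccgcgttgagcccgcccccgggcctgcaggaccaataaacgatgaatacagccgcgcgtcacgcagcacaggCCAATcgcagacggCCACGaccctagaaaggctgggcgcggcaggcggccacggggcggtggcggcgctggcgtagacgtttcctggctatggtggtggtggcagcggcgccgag
Tnfrsf17: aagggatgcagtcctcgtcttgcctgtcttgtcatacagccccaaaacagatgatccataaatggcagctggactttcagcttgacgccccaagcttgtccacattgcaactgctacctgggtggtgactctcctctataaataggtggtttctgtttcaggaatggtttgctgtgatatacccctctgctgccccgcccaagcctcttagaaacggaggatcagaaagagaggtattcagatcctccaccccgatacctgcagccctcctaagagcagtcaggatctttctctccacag
The motifs ATGCAAAT (octamer), CAGGTG (E box), TGACGTGG (the core of the unfolded protein response element), CCACGT and GAGGAA (PU box) were searched on both strands and were in neither window. Of 33469 promoters of the same length, 1.778% held the octamer, 18.84% the E box, 0.5946% TGACGTGG, 7.837% CCACGT, which overlaps TGACGTGG read on the other strand, and 27.6% the PU box. The ERSE, searched as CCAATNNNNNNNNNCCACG after the windows had been read, was in the Xbp1 window at chr14:84604558-84604576 and in 0.06573% of all promoters. A match gives letters only, not a bound site.

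The same letters were in the promoters of 7 of 27 genes of a secretory pathway list that had a promoter in the table (32 listed), and the sites are printed because one of these genes, Hsp90b1, was among the 5 genes whose signal was most like that of Xbp1 over the arrays. Of those 5 genes, all with a promoter in the table, only Hsp90b1 held the letters. Capitals mark the fixed letters of the ERSE. Hspa5 (BiP, the main chaperone of the endoplasmic reticulum) held its site at chr3:38452973-38452991 on the gene strand, 43 bases before the start. Hsp90b1 (Grp94) held a site at chr7:23012451-23012469, 176 bases before the start, and another on the opposite strand at chr7:23012347-23012365. Dnajc3 (P58IPK), a cochaperone, held its site at chr15:102432534-102432552.
Xbp1: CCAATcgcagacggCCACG
Hspa5: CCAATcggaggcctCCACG
Hsp90b1, gene strand: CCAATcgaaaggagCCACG
Hsp90b1, opposite strand: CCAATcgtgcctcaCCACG
Dnajc3: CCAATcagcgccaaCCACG
The remaining genes with the letters were Creld2, Derl3, Calr and Canx.

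Signal is given on the log2 scale relative to the 75th percentile of its array, so that 0 is the level of that percentile and each step of 1 is a doubling. Levels of different probes are not comparable, and each gene is read against itself. The walls had signal of bladder tissue in every group: 6 or 7 of 7 urothelium markers and 6 of 6 smooth muscle markers were well above background on every array of a group. Between 73.3% and 95.6% of gene spots were well above background at days 7 and 30, against 35.5% to 64.6% at days 90 and 180. The 8 groups were on 8 different slides, and slide cannot be told apart from group. Median local background of an array was 321 to 366 for BAM at day 90 and 138 to 171 for BAM at day 180. For BAM+ASCs at day 90 it was 99 to 120, and the part of background in differences of day 90 was not tested. Slides of days 7 and 30 were scanned on one date and those of days 90 and 180 on another. On the 64 arrays, Xbp1 was well above background on 64, Pou2af1 on 58, Mzb1 on 53, Cd79b on 45, Tnfrsf17 on 40 and Blk on 33, and no member was saturated. Pou2af1 had 3 probes, of which the brightest was used, and the others had the same sign of the difference between grafts at all 4 days. At days 90 and 180 those others were well above background on 0 to 2 of 8 arrays per group, so their sign there is that of signal near background. Their differences at day 180 were 0.20 and 0.42, beside 1.04 for the brightest. In bulk RNA, fewer cells of a type and less RNA per cell cannot be told apart.

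Cd79b, the signalling chain of the B cell receptor, had a median of -3.80 in walls of the seeded graft (BAM+ASCs) at day 7 (lowest -4.87, highest -2.98) and of -3.34 in walls of the unseeded graft (BAM) at that day (lowest -4.74, highest -1.01). At day 30 the median was -3.55 with BAM+ASCs (lowest -5.79, highest -1.56) and -2.22 with BAM (lowest -3.25, highest 1.05). The BAM arrays were the higher ones at day 30 and 5 of 8 BAM+ASCs arrays lay below every BAM array. The median at day 90 was -3.37 with BAM+ASCs (lowest -5.34, highest -2.17) and -2.49 with BAM (lowest -5.25, highest -0.44), with 4 and 6 of 8 arrays well above background. By day 180 it was -3.65 with BAM+ASCs (lowest -5.46, highest -2.14) and -4.72 with BAM (lowest -5.89, highest -4.24). The BAM arrays were then the lower ones, none of them was well above background, and 5 BAM+ASCs arrays lay above every BAM array.

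Blk, the Src family kinase of B cells, was well above background on all 8 arrays of each group at days 7 and 30. Its median at day 7 was -4.62 with BAM+ASCs (lowest -5.64, highest -3.71) and -4.01 with BAM (lowest -5.78, highest -3.53). At day 30 it was -4.52 with BAM+ASCs (lowest -5.62, highest -3.01) and -3.92 with BAM (lowest -4.26, highest -3.34). The day 30 groups overlapped, with 5 BAM+ASCs arrays below every BAM array and 1 above. At days 90 and 180 Blk was well above background on 1 of 8 BAM+ASCs arrays at day 90 and on no array of the other groups of those days. Its medians there, from -5.77 in BAM at day 180 to -4.95 in BAM at day 90, are therefore near background and have no order.

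Pou2af1, the octamer coactivator, was the member with the most arrays well above background after Xbp1. Its median at day 7 was -1.31 with BAM+ASCs (lowest -1.91, highest 0.36) and -0.37 with BAM (lowest -2.64, highest 2.37). At day 30 it was -1.24 with BAM+ASCs (lowest -2.84, highest 1.07) and 0.51 with BAM (lowest -0.37, highest 3.96). On that day 6 BAM+ASCs arrays lay below every BAM array. The median at day 90 was -0.75 with BAM+ASCs (lowest -5.74, highest -0.22) and -0.40 with BAM (lowest -5.13, highest 1.07). At day 180 it was -1.07 with BAM+ASCs (lowest -4.08, highest -0.20) and -2.21 with BAM (lowest -3.98, highest -1.49). Both day 90 groups held 1 or more arrays far below their median, and the groups overlapped on all days.

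Mzb1, the plasma cell chaperone, was spread widely within groups. At day 7 its median was -2.71 with BAM+ASCs (lowest -3.50, highest -0.34) and -1.53 with BAM (lowest -5.74, highest 1.36), and the BAM arrays reached both further down and further up. At day 30 the median was -2.77 with BAM+ASCs (lowest -6.76, highest -0.54) and -1.27 with BAM (lowest -2.21, highest 2.83), and 6 BAM+ASCs arrays lay below every BAM array. The median at day 90 was -2.41 with BAM+ASCs (lowest -5.98, highest -1.90) and -1.95 with BAM (lowest -5.10, highest -0.77). At day 180 it was -2.46 with BAM+ASCs (lowest -4.94, highest -0.92) and -4.04 with BAM (lowest -5.31, highest -3.09). The order of the grafts had turned at day 180, where 5 BAM+ASCs arrays lay above every BAM array and 4 of 8 BAM arrays were well above background.

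Tnfrsf17, the BCMA receptor, had nearly the same order of groups as Mzb1. The day 7 median was -3.34 with BAM+ASCs (lowest -3.98, highest -2.03) and -2.53 with BAM (lowest -7.21, highest 0.01). At day 30 the median was -3.12 with BAM+ASCs (lowest -6.75, highest -1.04) and -1.59 with BAM (lowest -2.94, highest 1.74), with 4 BAM+ASCs arrays below every BAM array. At day 90, where 4 of 8 arrays of each graft were well above background, the median was -3.42 with BAM+ASCs (lowest -6.01, highest -2.84) and -2.62 with BAM (lowest -5.05, highest -1.56). At day 180 the median was -3.78 with BAM+ASCs (lowest -5.49, highest -2.16) and -5.18 with BAM (lowest -5.84, highest -3.84). No BAM array of day 180 was well above background, against 2 of 8 with BAM+ASCs, and 5 BAM+ASCs arrays lay above every BAM array.

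Xbp1 varied least. Its 8 group medians lay between 1.70 in BAM+ASCs at day 30 and 2.21 in BAM+ASCs at day 180. At day 30 it ranged from 1.40 to 2.05 with BAM+ASCs and from 1.59 to 2.86 with BAM, and at day 180 from 1.66 to 2.34 and from 1.76 to 2.17. Of the BAM+ASCs arrays, 2 of 8 lay below every BAM array at day 30, and 6 lay above and 1 below every BAM array at day 180. Within a group, the highest array was between 1.328 and 2.419 times the lowest for Xbp1. For the others the corresponding ratio between rats of the same group ran from 1.488 to 6.115 for Blk, from 3.141 to 27.92 for Cd79b, from 4.848 to 73.61 for Pou2af1, from 4.66 to 136.7 for Mzb1 and from 3.87 to 148.6 for Tnfrsf17, where the lowest arrays of several groups were not well above background.

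**Figure D1:**
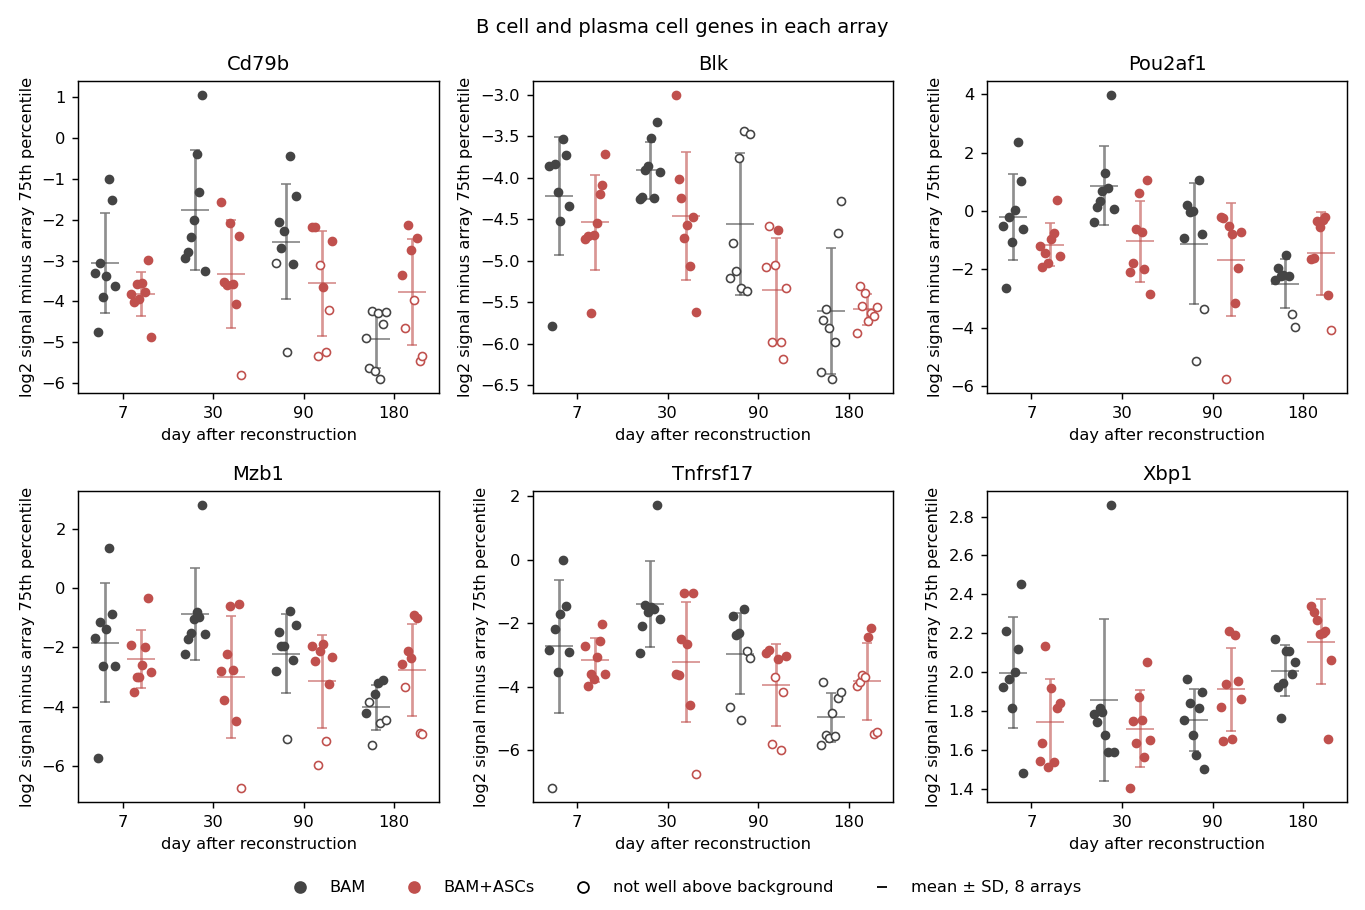
Log2 signal relative to the 75th percentile of each array (y axis, 1 scale for each of 6 genes) in the 8 arrays of each graft at 7, 30, 90 and 180 days (x axis). Filled points are well above background, open points are not, and bars are group means ± SD (n = 8 arrays). Cd79b, Pou2af1, Mzb1 and Tnfrsf17 have their highest mean in BAM at day 30 and their lowest in BAM at day 180. Blk has its highest mean in BAM at day 30, and its day 180 means, near background with both grafts, have no order.

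Ordered by group means, BAM at day 30 was highest and BAM at day 180 lowest for Cd79b, Pou2af1, Mzb1 and Tnfrsf17. In that lowest group Cd79b and Tnfrsf17 were well above background on no array. Blk was also highest in BAM at day 30. Its means at day 180 were -5.60 with BAM and -5.59 with BAM+ASCs, with no array of either well above background, and have no order. For Cd79b the means ran in the order BAM day 30 (-1.76), BAM day 90 (-2.53), BAM day 7 (-3.06), BAM+ASCs day 30 (-3.32), BAM+ASCs day 90 (-3.55), BAM+ASCs day 180 (-3.76), BAM+ASCs day 7 (-3.82) and BAM day 180 (-4.93). Of the 7 gaps between neighbours in this order 1 was beyond the larger of the neighbours' SDs, that between BAM+ASCs at day 7 and BAM at day 180 (1.12 against an SD of 0.71). None of the 7 gaps was beyond it for any other member. Mzb1 ran from -0.87 to -4.03, Tnfrsf17 from -1.40 to -4.97, Pou2af1 from 0.86 to -2.49 and Blk from -3.91 to -5.60. Xbp1 had another order, from 2.15 in BAM+ASCs at day 180 to 1.71 in BAM+ASCs at day 30.

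The question of the graft comparison was whether seeding with ASCs changed the signal of these genes at each day. At day 30, where the gap between group means was widest for Mzb1, Pou2af1, Tnfrsf17 and Cd79b, Mzb1 differed by -2.12 with BAM+ASCs on the log2 scale (4.345-fold lower, SE 0.76, 95% interval -3.63 to -0.61). Pou2af1 differed by -1.90 (3.736-fold, -3.34 to -0.46), Tnfrsf17 by -1.81 (3.517-fold, -3.19 to -0.44) and Cd79b by -1.56 (2.951-fold, -2.74 to -0.38). Blk differed by -0.55 (-1.19 to 0.08) and Xbp1 by -0.15 (-0.40 to 0.10). None of the 6 passed the threshold of an adjusted p under 0.01 with a fold change over 1.5 (limma, Benjamini-Hochberg over 30367 probes), although 4 had an unadjusted p under 0.05. The adjusted p was 0.0662 for Mzb1, 0.0839 for Pou2af1, 0.0841 for Cd79b and 0.0851 for Tnfrsf17. Over all probes 1.67% were called at that day. The median difference of the 6 genes was -1.69, beside 0.08 over all named genes, and all 6 differences were negative.

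Part of the size at day 30 came from single rats. Replicate 7 of BAM was the highest of its group on all 6 genes, at 3.70 above the group mean for Mzb1, 3.14 for Tnfrsf17, 3.10 for Pou2af1, 2.81 for Cd79b, 1.01 for Xbp1 and 0.58 for Blk. On the same array the neutrophil markers stood 2.02 above their group mean and the T cell markers 0.66. The pan-leukocyte markers deviated by 0.06 and the macrophage markers by -0.14. Without it the difference was -1.16 for Cd79b and -1.46 for Pou2af1. Replicate 8 of BAM+ASCs was the lowest of its group on 5 of the 6 genes, with a deviation of -3.77 for Mzb1, and without it the difference was -1.58 for Mzb1 and -1.31 for Tnfrsf17. Leaving out other arrays made the difference larger. It was -2.47 for Mzb1 and -2.20 for Pou2af1 without replicate 7 of BAM+ASCs, and -2.13 for Tnfrsf17 without replicate 4. Every one of these values remained negative, and 0 of the 6 genes were called with any array left out.

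Pan-leukocyte, T cell and macrophage markers were also lower with BAM+ASCs at day 30 by their medians, and neutrophil and urothelium markers were higher. The summed signal of the 5 pan-leukocyte markers (Ptprc, Cd53, Coro1a, Laptm5 and Cd52), in multiples of the 75th percentile of the array, was 29.98 to 70.99 with BAM+ASCs at day 30 (median 48.53) and 70.57 to 90.41 with BAM (median 82.51). That of 10 T cell markers was 1.437 to 4.184 (median 2.492) and 2.02 to 10.66 (median 4.617). The median difference was -0.93 over the leukocyte markers, -0.82 over the T cell markers and -0.64 over 6 macrophage markers. No pan-leukocyte marker was called between grafts at any day. Over 4 neutrophil markers the median difference was 1.33, with 3 of 4 higher and a summed signal of 1.043 to 21.12 with BAM+ASCs (median 1.708) and 0.5457 to 4.508 with BAM (median 0.6591). Over 7 urothelium markers it was 0.74, with all 7 higher by their means. None of the T cell, macrophage, neutrophil and urothelium markers was called at that day. All 5 pan-leukocyte markers were well above background on every array of both groups, while 1 of the 6 macrophage markers was so on no BAM array. The part of these other cells in the difference of the B cell and plasma cell genes was not tested.

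At day 7 all 6 genes were lower with BAM+ASCs by their group means, with differences between -0.94 for Pou2af1 (-2.38 to 0.50) and -0.25 for Xbp1 (-0.50 to -0.01). None was called, with adjusted p from 0.160 to 0.721 (limma), where 7.73% of probes were called. The median was -0.49 beside -0.13 over all genes. Without replicate 6 of BAM the difference was -0.57 for Pou2af1, -0.46 for Cd79b, -0.10 for Mzb1 and -0.04 for Tnfrsf17, and without replicate 2 of BAM it was -1.11 for Mzb1, -1.07 for Tnfrsf17 and -0.54 for Blk. Of 7 urothelium markers 5 were called higher with BAM+ASCs at day 7 (median 2.14), with a summed signal of 46.68 to 160.5 (median 120.1) against 2.309 to 109.9 with BAM (median 32.33). Of 4 neutrophil markers 1 was called lower (median -1.49), with a summed signal of 7.224 to 27.18 (median 10.84) against 13.58 to 94.1 (median 39.86). Their part in the day 7 differences was not tested. At day 90 the differences ran from -1.02 for Cd79b (-2.20 to 0.17) to 0.16 for Xbp1 (-0.09 to 0.41). None was called, where 12.5% of probes were called, and the median was -0.86 beside -0.16. The lowest adjusted p at day 90 was 0.0449, for Blk, which was well above background on 1 and 0 of 8 arrays. The Pou2af1 difference at day 90 was -0.55, and it was 0.03 without replicate 3 of BAM+ASCs, on which the deviation of the leukocyte markers from their group mean was -2.46.

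The sign was the other way at day 180. Mzb1 was 1.27 higher with BAM+ASCs by group means (2.406-fold, -0.25 to 2.78), Cd79b by 1.17 (-0.01 to 2.35), Tnfrsf17 by 1.13 (-0.24 to 2.51) and Pou2af1 by 1.04 (-0.40 to 2.48). Cd79b and Tnfrsf17 were well above background on no BAM array of that day and on 4 and 2 of 8 BAM+ASCs arrays. With each BAM array set no lower than its dimmest probe well above background, their means were 1.881-fold and 1.917-fold higher with BAM+ASCs. These folds are estimates without an interval, not lower limits. None of the 6 was called and none had an unadjusted p under 0.05, with adjusted p from 0.364 to 0.999 (limma), where 2.44% of probes were called. The median difference was 1.09 beside 0.03 over all genes. Leukocyte markers were at 12.15 to 46.57 with BAM+ASCs (median 25.62) and at 12.16 to 32.41 with BAM (median 19.22), and T cell markers at 1.066 to 4.769 and 1.294 to 1.718.

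Whether the difference between grafts itself changed from day to day was tested as a contrast of contrasts for the 6 pairs of days, 36 tests over the members. None reached an adjusted p under 0.01. Over all probes 1.05% were called for days 30 and 7, 6.95% for days 90 and 7, 9.36% for days 180 and 7, 11.4% for days 90 and 30, 2.68% for days 180 and 30 and 11.3% for days 180 and 90. From day 30 to day 180 the difference was higher by 3.39 for Mzb1 (adjusted p 0.0430, limma), 2.73 for Cd79b (0.0354), 2.95 for Tnfrsf17 (0.0544) and 2.94 for Pou2af1 (0.0687), and by 0.57 for Blk and 0.29 for Xbp1. Those of Mzb1, Cd79b, Tnfrsf17 and Pou2af1 had an unadjusted p under 0.05. Under the other ways of processing, the adjusted p ranged from 0.0226 to 0.0531 for Mzb1 and from 0.0185 to 0.0533 for Cd79b. The median change between these days was 2.84 over the 6 genes beside -0.07 over all genes.

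**Figure D2:**
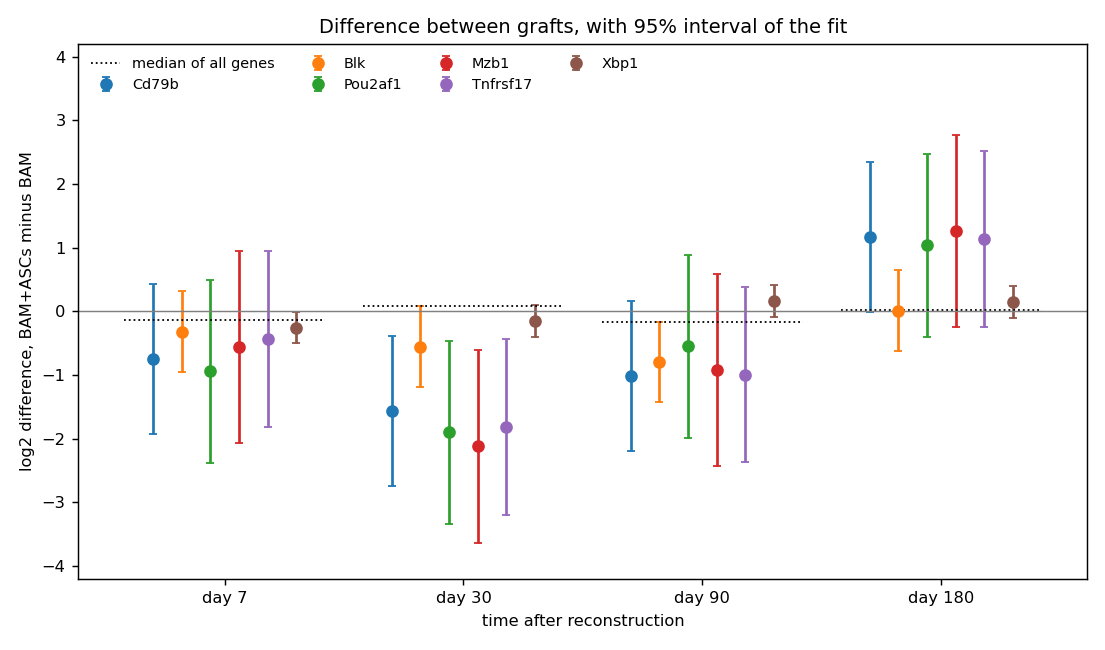
Difference of BAM+ASCs minus BAM in log2 signal (y axis) for each of the 6 genes at 7, 30, 90 and 180 days (x axis), with 95% intervals from limma over 64 arrays a line at 0 and dotted lines at the median of all named genes. Points of Cd79b, Pou2af1, Mzb1 and Tnfrsf17 lie below 0 at day 30 and above 0 at day 180, and the intervals at day 180 include 0.

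Along the course of healing with BAM only, Cd79b fell from day 90 to day 180. Its mean went from -2.53 to -4.93, a change of -2.40 (SE 0.59, 95% interval -3.58 to -1.22, adjusted p 0.00140 in limma). No array of day 180 was well above background. With those arrays set no lower than their dimmest probe well above background, the day 90 mean was 4.405-fold higher, an estimate and not a lower limit. Cd79b was the 1 member called of 6 in that comparison, where 9.39% of probes were called, and the median over the members was -1.59 beside -0.19. Of the others, none passed the threshold, with Tnfrsf17 at -2.01 (adjusted p 0.0259), Blk at -1.04 (0.0107, not well above background on any array of either day) and Mzb1 at -1.81 (0.0757). Over these days with BAM, 4 of 10 T cell markers were also called lower (median -1.13), with a summed signal of 0.8087 to 8.196 at day 90 (median 2.355) and 1.294 to 1.718 at day 180 (median 1.454). The 7 urothelium markers were all higher by their means (median 1.18) and none was called, with a summed signal of 23.34 to 203.9 at day 90 (median 115.8) and 175.3 to 332.8 at day 180 (median 208.6). The local background was higher on the day 90 slide (321 to 366 against 138 to 171), and with another background correction (normexp) the Cd79b change was -1.37. The part of these markers and of the background in the Cd79b change was not tested. With BAM+ASCs, Cd79b differed by -0.21 over the same days (-1.39 to 0.97) and none of the 6 members was called, where 4.14% of probes were called. The test of the difference between the grafts for these 2 days had adjusted p between 0.0511 and 0.970 over the members.

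From day 7 to day 30 with BAM, 5 of 6 members were higher by their means and none was called, where 8.65% of probes were. The median was 1.02 beside -0.06, and the change was 1.33 for Tnfrsf17 (-0.05 to 2.71) and 1.30 for Cd79b (0.12 to 2.49, unadjusted p 0.0311). With BAM+ASCs the median change was 0.02, beside 0.19, and none was called, where 8.06% of probes were. From day 30 to day 90 none of the members was called with either graft, where 44.7% of probes were called with BAM and 28.1% with BAM+ASCs. All 6 were lower by their means with BAM, with a median of -1.06 beside 0.19 and the lowest adjusted p for Pou2af1 (-1.98, 0.0144), and 5 of 6 with BAM+ASCs, with a median of -0.43 beside 0.07. This step lies across the scan dates, which cannot be told apart from the days.

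Between rats of the same group, Cd79b, Mzb1, Pou2af1 and Tnfrsf17 varied together. Deviations of each array from its group mean were correlated over the 64 arrays, with 22 relations in the family and p from 100000 permutations within groups. The 6 pairs of these genes had Pearson r between 0.737 and 0.936 and Spearman rho between 0.677 and 0.888, all with an adjusted permutation p of 3e-05, which is the smallest that the permutations can give after adjustment. Without the 2 arrays farthest from the median, r was 0.674 to 0.920. Within days 7 and 30 it was 0.792 to 0.975, and within days 90 and 180, the arrays of the other scan date, 0.690 to 0.870. The closest pair was Mzb1 and Tnfrsf17 (r = 0.936, rho = 0.888), both plasma cell genes. Blk was correlated less with these genes (r 0.285 to 0.567, highest adjusted permutation p 0.046). Xbp1 had r between -0.118 (Blk, adjusted permutation p 0.345) and 0.390 (Pou2af1, 0.0056) with the others. With Mzb1 its r was 0.348 (0.0217), with Cd79b 0.309 (0.0379, and 0.178 by rho) and with Tnfrsf17 0.303 (0.0396).

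**Figure D3:**
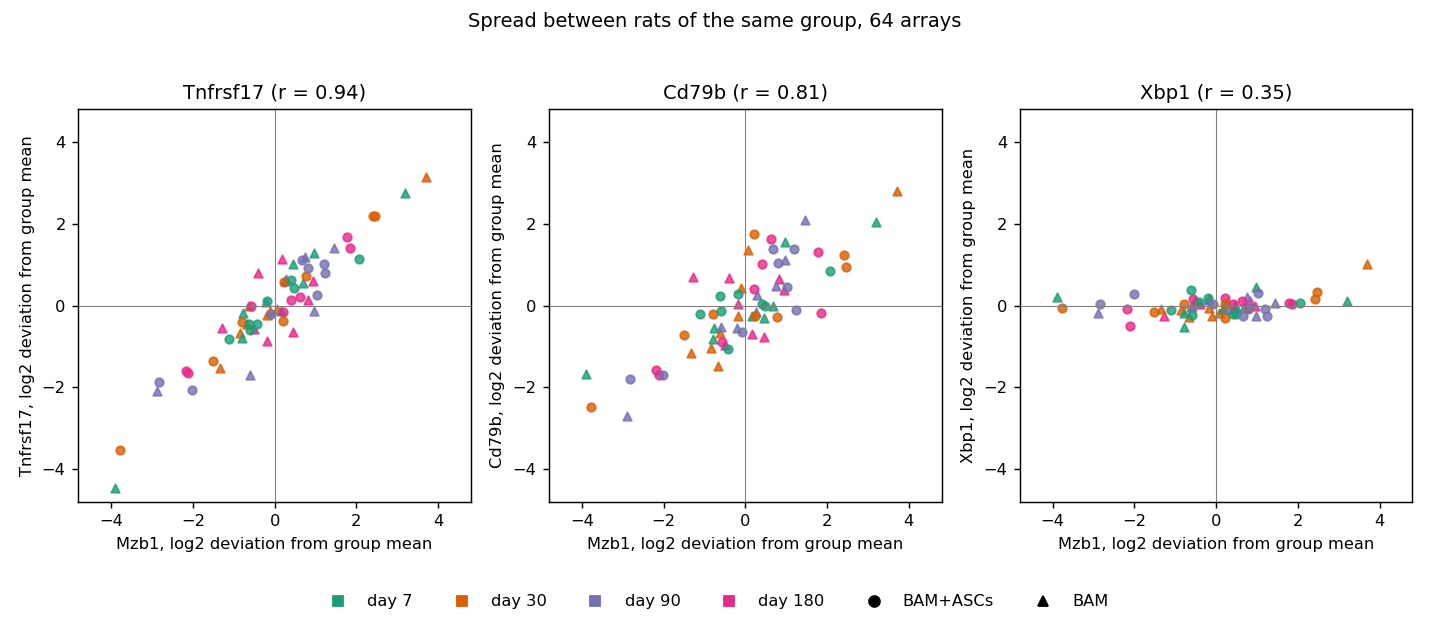
Deviation of Mzb1 from its group mean (x axis, log2) against that of Tnfrsf17, Cd79b and Xbp1 (y axes, log2) on 64 arrays, with 1 point for each rat, colors for days and shapes for grafts. Tnfrsf17 and Cd79b rise with Mzb1, with r of 0.936 for Tnfrsf17. The points of Xbp1 span a narrower range and have r of 0.348 with Mzb1.

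The same arrays stood at the ends of several genes. Replicate 6 of BAM at day 7 was highest on 5 of 6 genes and replicate 2 of that group was lowest on 5, with deviations of -4.47 for Tnfrsf17 and -3.90 for Mzb1. At day 90, replicate 5 of BAM had deviations of -4.01 for Pou2af1 and -2.26 for the leukocyte markers, and replicate 3 of BAM+ASCs one of -4.07 for Pou2af1. Replicate 6 of BAM at day 90 was at the upper end, with Pou2af1 2.19 and T cell markers 1.42 above. Markers and members parted on replicate 6 of BAM+ASCs at day 90. There the deviations were -2.06 for Tnfrsf17 and -2.02 for Mzb1, but 0.75 for the leukocyte markers and 2.08 for the neutrophil markers. Deviations of Mzb1 were correlated with those of the T cell markers (r = 0.629, rho = 0.643, adjusted permutation p 3e-05 for both, above 0 within 8 of 8 groups). They were correlated with the pan-leukocyte markers less (r = 0.458, rho = 0.367, adjusted permutation p 0.00035 and 0.0074). This r was 0.248 within days 7 and 30 and 0.676 within days 90 and 180. With neutrophil markers r was 0.372 (adjusted permutation p 0.0093) and with macrophage markers 0.331 (0.0138, and 0.0562 by rho). The correlation with smooth muscle markers was negative (r = -0.513, rho = -0.460). With urothelium markers r was -0.085 and with the share of spots well above background -0.047.

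The genes most like a member were sought among 11140 named genes well above background on at least 32 arrays, by Pearson r of the deviations over the 64 arrays, as a description. Cd79a and Jchain, for which this had been planned, had no probe, and Pou2af1 and Xbp1 stood in as the B cell and the plasma cell member with the most arrays well above background. Pou2af1 was most like Igll1, the lambda-like chain of the pre-B cell receptor (r = 0.865), Ccr6, a chemokine receptor of lymphocytes (0.839), Hcst, an adaptor of natural killer cells and T cells (0.824), Snx20 (0.821) and Cd247, the zeta chain of the T cell receptor (0.809). Mzb1, added after its values were seen, was also most like Igll1 (0.826), followed by Tp53inp1 (0.730), Ccr10, a homing receptor of antibody-secreting cells (0.715), Ccr6 (0.705) and Hcst (0.702). Xbp1 was most like another group of genes: Dnajb11 (0.752), a chaperone cofactor of the endoplasmic reticulum, Ddost (0.722), a subunit of the complex that adds sugars to new proteins, Lman2 (0.720), a cargo receptor, Hsp90b1 (0.708), whose ERSE letters are printed above, and Ssr4 (0.707), a subunit of the translocon-associated complex. Hsp90b1 was the only one of these 5 genes with the ERSE letters, although all 5 had a promoter in the table. None of the 5 genes most like Xbp1 was among those of Pou2af1 or Mzb1.

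Further genes of the pathway were counted from 6 lists. Of the B cell surface list 14 of 16 genes had a probe, and 0 were called at day 30 between grafts, with a median of -0.71 and 13 of 14 lower with BAM+ASCs. At day 180 the median of the list was 0.15 and 10 of 14 were higher. Among called genes, Cxcr5, the receptor that guides B cells into follicles, was lower with BAM+ASCs at day 7 (adjusted p 0.0091, well above background on 0 and 2 of 8 arrays). Its means differed 2.135-fold with each BAM+ASCs array set no lower than its dimmest probe well above background. Ccr7, a lymph node homing receptor, was called lower at day 90 (-1.10) but was well above background on 1 array of each graft.

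Of 12 genes of B cell receptor signalling 11 had a probe. Their median was -0.81 at day 30, all 11 were lower with BAM+ASCs by their means and none was called. At day 180 it was 0.16 with 7 of 11 higher. Lyn, a Src family kinase, was called lower at day 90, where it was well above background on no array of either graft. Between days 30 and 90, 9 of the 11 fell with BAM (median -1.53) and 7 with BAM+ASCs (median -1.09), among them Btk, the kinase whose loss stops B cell development (-1.88 with BAM). Over the same days 4 of 5 pan-leukocyte markers were also called lower with each graft (median -1.70 with BAM and -1.19 with BAM+ASCs). Their part in the fall of the signalling genes was not tested. The background of 44.7% and 28.1% called probes and the change of scan date apply to these counts too.

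All 12 B lineage transcription factors had a probe, and 3 were called between grafts with all arrays well above background. Bcl11a, an early lymphoid factor also used outside the B lineage, was higher with BAM+ASCs at day 180, from 0.40 to 1.34 (median 0.76) against -0.38 to 0.03 (median -0.21) with BAM. All 8 BAM+ASCs arrays lay above every BAM array, and the difference was 0.96 (SE 0.18, adjusted p 9e-05). Ebf1, the early B cell factor, which stromal cells and adipocytes also use, was lower with BAM+ASCs at day 7, from -6.81 to -4.63 (median -6.43) against -5.81 to -3.51 (median -4.42), by -1.57 (SE 0.32, adjusted p 0.00029). Bcl6, the germinal centre repressor, was lower at day 90 (-0.78, adjusted p 0.0025). None of these 3 genes was called at more than 1 day. Pax5, the B cell identity factor, differed by 0.01 at day 30 and by 0.35 at day 180, and Prdm1, which directs B cells into plasma cells, by -0.55 and 0.41, without being called. Irf4, needed for plasma cells, rose with BAM from day 7 to day 30 (1.85, SE 0.46, adjusted p 0.00208) and differed by 1.01 with BAM+ASCs (adjusted p 0.0889).

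Survival and recruitment signals had 15 of 16 genes on the array. Their median difference between grafts was -0.33 at day 30, where 6 of 15 were higher with BAM+ASCs and none was called. At day 180 it was 0.07 with 13 of 15 higher. Cxcl13, the chemokine that draws B cells into tissue, was well above background on all 32 arrays of days 7 and 30. With BAM it ranged from -1.42 to 2.08 at day 7 (median 0.81), from 2.77 to 4.42 at day 30 (median 3.51) and from -2.23 to 2.20 at day 90 (median 0.97). The day 30 arrays lay above every array of the other days shown, with a rise of 2.70 (SE 0.66, adjusted p 0.0016) and then a change of -2.82 (adjusted p 0.000187). With BAM+ASCs it was at -0.05 to 3.49 at day 30 (median 1.66), a difference of -1.71 from BAM (adjusted p 0.0908), and its difference of 1.19 from day 7 was not called (adjusted p 0.158). Tnfsf13 (APRIL), a ligand of Tnfrsf17, differed between grafts by -0.81 at day 30 (SE 0.25, adjusted p 0.0329). Il6, a survival factor of plasma cells and a general inflammatory cytokine, was lower with BAM+ASCs at day 7 (-2.20, SE 0.50, adjusted p 0.00103), with 7 of 8 arrays below every BAM array and 2 and 8 arrays well above background.

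Plasma cell surface and antibody transport had 8 of 12 genes on the array, and the immunoglobulin symbols of the list had no matched probe. Its median at day 30 was -0.76 and none was called. Sdc1 (CD138), a plasma cell marker that urothelium also carries, was higher with BAM+ASCs at day 90, from 5.35 to 6.08 (median 5.51) against 2.54 to 5.35 (median 4.53), by 1.16 (SE 0.19, adjusted p 1.38e-06), with all 8 arrays above every BAM array. On those arrays the median difference of the urothelium markers was 1.30, and their part in the Sdc1 value was not tested. Cd38, an ectoenzyme of plasma cells and other leukocytes, was called lower at day 90 with 0 and 1 of 8 arrays well above background. Pigr, which carries antibody across epithelium, was called at no day between grafts.

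The secretory pathway and unfolded protein response had 29 of 32 genes on the array, and 1 was called between grafts. Atf6, a sensor of the unfolded protein response, was lower with BAM+ASCs at day 7, from -0.41 to 0.76 (median -0.17) against 0.47 to 1.51 (median 0.79), by -0.91 (SE 0.17, adjusted p 6.9e-05). In this comparison 7 of 8 BAM+ASCs arrays lay below every BAM array. The medians of the list were -0.13, -0.16, -0.17 and 0.08 at the 4 days, beside -0.13, 0.08, -0.16 and 0.03 over all genes. From day 30 to day 90, 12 of the 29 were called lower with each graft, beside 44.7% of all probes called in either direction with BAM and 28.1% with BAM+ASCs, across the scan dates. Dnajb11 was among them (-0.82 with BAM and -0.87 with BAM+ASCs).

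**Figure D4:**
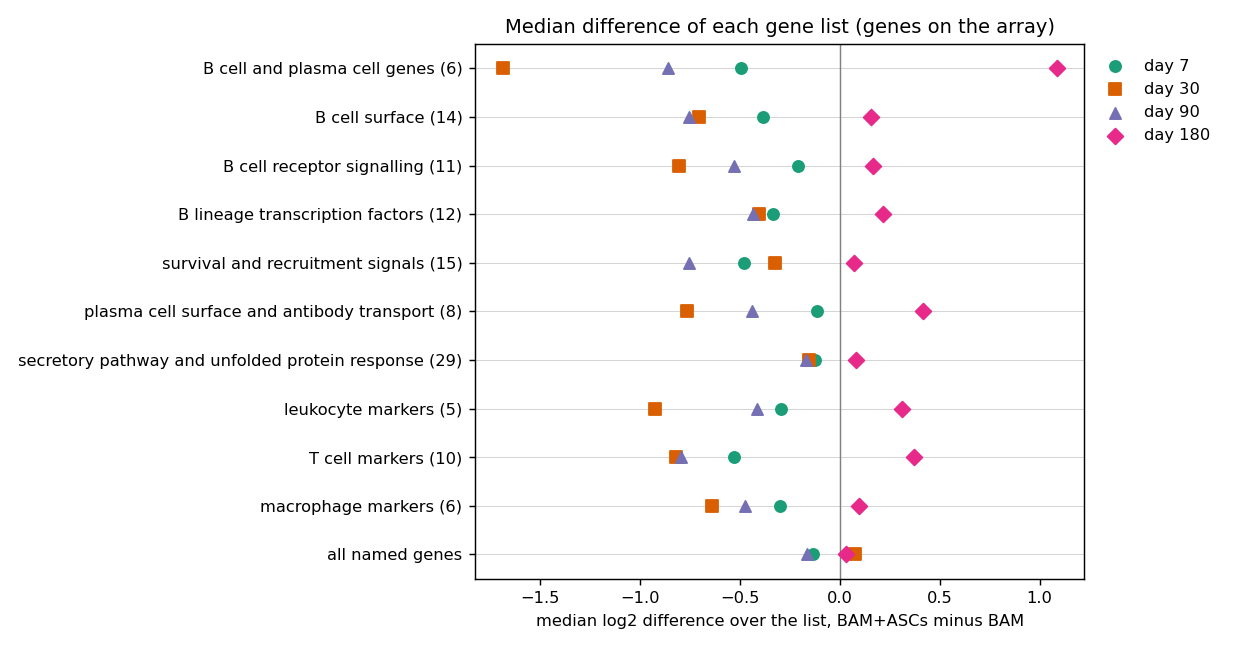
Median log2 difference of BAM+ASCs minus BAM (x axis) over the 6 genes, the 6 pathway lists, the leukocyte, T cell and macrophage markers and all named genes (rows) at 7, 30, 90 and 180 days (colored points). The median of the 6 genes is -1.69 at day 30 and 1.09 at day 180, beside 0.08 and 0.03 over all named genes.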

How the data were processed

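Total RNA of reconstructed bladder walls was labelled with Cy3 and hybridized on 64 Agilent arrays, 8 for each graft and day. The authors deposited Agilent Feature Extraction output of each array, whose processed signal is a linear intensity corrected for background, and a series table of intensity values, used as an alternative only. Normalization between arrays is not given in the sources used here. For the values given, the processed signal was taken to log2, the 75th percentile of non-control spots was subtracted on each array, outlier spots were dropped, and the mean over replicate spots was used. A probe was well above background where at least 0.5 of its spots were. RefSeq accessions of 22372 probes were matched without version to the rat table of GRCr8, which named 18758 of 30367 probes, for 15715 genes. A gene with several probes was read from the brightest over all arrays.

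Group means were fitted over all 64 arrays with limma 3.58.1 in R 4.3.3 and p was adjusted by Benjamini-Hochberg over all probes. The calls needed a fold change over 1.5 and an adjusted p below 0.01, as in the study's methods. These p-values rest on the spread between rats within groups, pooled over the 8 groups for each probe and moderated across probes. Group SDs were unequal, for Cd79b from 0.535 to 1.469. The number of arrays limits the precision. Other steps ran in Python 3.11.15 (pandas 2.3.3, numpy 2.4.6, scipy 1.17.1). The fit was first checked on simulated arrays in which 200 probes had been changed. The members and lists were chosen with earlier results of these data known. Further genes were named where called between grafts, at most 4 for each list and day, and otherwise to describe a list. Tnfsf13, Irf4 and Cxcl13 were singled out after their values were seen. Alternatives were leaving out each array in turn, the series table, quantile normalization, normexp (offset 50), scaling over detected probes alone, removal of dim probes, fits of single days, a replicate block and the study's 2-way analysis of variance. They were added for the change of the graft difference between days after the data were seen. Labels and paper number the groups differently, and arrays were assigned by the graft and day of the labels.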

Additional observations from a re-analysis of the deposited data

Results flagged for a closer look

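In 48 sets of 8 arrays (6 genes in 8 groups), an array at one end was checked for a gap to its neighbour above Dixon's critical share of the range of the group, which chance gives in about 1 of 20 sets. It was found in 7 sets. Replicate 7 of BAM at day 30 was the highest array on Xbp1 (gap share 0.8203), Mzb1 (0.7211), Tnfrsf17 (0.6739) and Pou2af1 (0.6177). Replicate 5 of BAM at day 90 was the lowest on Mzb1 (0.529). Replicate 2 of BAM at day 7 was the lowest on Blk (0.5576). Replicate 7 of BAM+ASCs at day 180 was the lowest on Xbp1 (0.5942). No member changed its graft difference between days at an adjusted p under 0.01 in limma.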

How the results depend on the processing

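In the comparisons between grafts, 0 of the 6 genes were called at each of the 4 days under the 8 other alternatives and with any of the 64 arrays left out. At days 90 and 180, however, removal of dim probes left Xbp1 as the only member tested, and that alternative says nothing about the other members there. The contrasts between days also had 0 calls under theirs. Over time the count changed in 4 comparisons. From day 30 to day 90 with BAM it was 1 after quantile normalization and 0 to 1 with 1 array left out (1 without BAM+ASCs day 90 replicate 3, BAM day 90 replicate 2 or BAM day 90 replicate 6). From day 90 to day 180 with BAM it was 2 with the series table (in which 3 BAM+ASCs columns of day 7 lay -3.30 to -3.31 on the log2 scale from the scanner values before scaling and BAM day 180 replicate 1 lacked 24873 gene spots), 0 without dim probes, where Cd79b was no longer tested, and 1 to 2 with 1 array left out. There it was 2 without replicate 3 of BAM+ASCs or 2 of BAM at day 7, 1 or 8 of BAM+ASCs at day 30, 1, 3, 5 or 7 of BAM at day 90, or 7 or 8 of BAM at day 180. With BAM+ASCs it was 0 to 1 from day 30 to day 90 (1 without replicate 8 of day 30 or replicate 2 of day 90) and 1 from day 90 to day 180 after quantile normalization. The Cd79b change from day 90 to day 180 with BAM was -2.58 to -1.37 in the alternatives that tested it (adjusted p 0.00105 to 0.00857 in limma or analysis of variance) and -2.79 to -2.10 with 1 array left out. The sign of the Blk difference between grafts, near background at those days, turned to 0.0537 (normexp) and 0.39 (quantile) at day 90 and to -0.14, -0.41 and -0.043 (normexp, quantile, percentile over detected probes) at day 180, where it was -0.10 to 0.20 with 1 array left out. The Pou2af1 difference at day 90 was -1.12 to 0.0328 with 1 array left out. For these changes the cause was not tested, other than the missing test of Cd79b. Replicate numbers did not pair the rats: at days 7, 30, 90 and 180 a correlation over 0.1 was found in 3, 3, 2 and 1 of 8 pairs. With the replicate block 0 members were called between grafts and 1 from day 90 to day 180 with BAM, and it changed no call. Signal near background limits Blk at days 90 and 180 and Cd79b and Tnfrsf17 in BAM at day 180.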
